A study of Mus musculus with 2 samples.

Results

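Gzmk, Gzma and Gzmm encode granzymes K, A and M, 3 of the 32285 genes in the count matrices. They were read by symbol in 2 single-cell libraries (10x Genomics 5' chemistry) of live CD8+ cells, sorted on day 9 from implanted tumours of MC38, a colon carcinoma line, in wild-type mice. The control mice carry the treatment label PBS and a library name with the abbreviation Iso. The other library is from mice given an antibody against NK1.1, which removes natural killer (NK) cells, and is called NK-depleted here. What both groups share is the tumour, the wild-type genotype, the day and the sort for live CD8+ cells. How many mice went into a library is not stated in these sources. A cell entered the population if it had at least 500 detected genes, a mitochondrial share of transcripts under 10%, and at least 1 UMI (a counted RNA molecule) of a Cd3 gene and of a Cd8 gene. That left 6901 of 7866 control barcodes and 8164 of 10111 NK-depleted barcodes.

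With 1 library per group there is no spread between animals, so no difference below was tested. Intervals in parentheses are 95% intervals that cover counting error only. They are exact for levels, ratios of levels between the libraries and shares of cells. Intervals of levels and of their ratios treat every UMI as independent and leave out the spread between cells. The population held 106462391 UMIs for the control and 125332343 for NK depletion, with medians of 11444 and 12289.5 UMIs per cell and median mitochondrial shares of 2.27% and 2.80%. The libraries shared 391 cell barcodes, 26 of them within both populations. Doublets were not called. Levels are given as CPM, the UMIs of a gene scaled to the summed UMIs of the cells they were read in. Such a sum cannot tell fewer expressing cells from less RNA per cell. For shares of cells, every cell was thinned to 5500 UMIs, which left 6246 control and 7384 NK-depleted cells, and a cell with at least 1 UMI of a gene after thinning is called a carrier of it.

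Granzymes are serine proteases stored in the granules of killer lymphocytes and delivered into a target cell through pores made by perforin. Granzyme B cuts after aspartate and starts apoptosis, while granzymes A and K cut after lysine or arginine and granzyme M after methionine or leucine. In mouse CD8+ T cells granzyme B is the hallmark of the activated killer cell. Granzyme K marks effector memory-type and early dysfunctional cells in tumours and inflamed tissue, granzyme A marks cytotoxic effector cells and NK cells, and granzyme M is best known from NK cells and innate-like lymphocytes.

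Gzma and Gzmk are neighbours in the mouse genome. In GENCODE vM21 on GRCm38 (mm10), Gzma lies on chromosome 13 from 113093825 to 113100981, minus strand, and RefSeq places Gzmk on the same strand from 113171630 to 113180965. The GENCODE models of both genes are 70.6 kb apart, with 3 genes between them, 0 of which code for protein. Gzmm lies on chromosome 10 from 79689020 to 79695261, plus strand, apart from them. The 250 bases upstream of each start, from RefSeq on GRCm38.p6, are shown because Gzmk and Gzma lie close together yet differed in opposite directions between the libraries, with Gzmm from another chromosome beside them. Capitals mark matches, on either strand, to 5 short core motifs of factors known from T cells. The regions are chr13:113180966-113181215 for Gzmk and chr13:113100982-113101231 for Gzma, both on the minus strand, and chr10:79688770-79689019 on the plus strand for the first of 2 listed starts of Gzmm.
Gzmk: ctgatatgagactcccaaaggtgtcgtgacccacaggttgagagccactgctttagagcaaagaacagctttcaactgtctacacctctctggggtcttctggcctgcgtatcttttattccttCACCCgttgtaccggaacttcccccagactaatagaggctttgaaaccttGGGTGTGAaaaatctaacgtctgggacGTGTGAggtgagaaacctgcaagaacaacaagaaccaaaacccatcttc
Gzma: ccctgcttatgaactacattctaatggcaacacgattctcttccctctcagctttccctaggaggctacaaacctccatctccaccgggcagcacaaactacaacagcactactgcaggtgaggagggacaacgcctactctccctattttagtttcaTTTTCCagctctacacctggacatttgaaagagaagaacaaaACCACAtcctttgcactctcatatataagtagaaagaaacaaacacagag
Gzmm: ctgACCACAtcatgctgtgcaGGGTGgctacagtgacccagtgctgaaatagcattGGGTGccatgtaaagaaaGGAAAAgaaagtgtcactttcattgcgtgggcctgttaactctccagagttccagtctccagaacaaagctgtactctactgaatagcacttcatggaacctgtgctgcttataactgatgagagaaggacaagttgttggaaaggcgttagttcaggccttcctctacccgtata
The Gzmk sequence held 2 matches to the T-box core GTGTGA, which 12.3% of 32851 RefSeq promoter windows of this length hold, and 2 to the KLF core CACCC, which 52.0% hold. One KLF match in Gzmk overlaps a T-box match. Gzma and Gzmm each held 1 match to the RUNX core TGTGGT (14.0% of promoters) and 1 to the NFAT core GGAAAA (20.4%), and Gzmm held 2 to the KLF core. No match to the AP-1 motif TGANTCA (6.75%) was found in any of the 3 windows. Matches of letters are a description and do not show that a factor binds.

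Gzmk was lower and Gzma higher in the NK-depleted library, while Gzmm was low in both. Gzmk had 9359 control and 4286 NK-depleted UMIs, or 87.9 CPM (86.1 to 89.7) and 34.2 CPM (33.2 to 35.2). This is 2.57-fold lower in the NK-depleted library (2.48 to 2.67). Gzma had 23626 and 39314 UMIs, or 222 CPM (219 to 225) and 314 CPM (311 to 317), a ratio of 1.41 (1.39 to 1.44). Gzmm had 637 and 880 UMIs, or 5.98 CPM (5.53 to 6.47) and 7.02 CPM (6.57 to 7.5), a ratio of 1.17 (1.06 to 1.30). Gzmk and Gzma, on the same stretch of chromosome 13, thus differed in opposite directions between the libraries. Of 3023 genes with at least 50 CPM in 1 library, 2.45% were at least 1.5-fold lower in the NK-depleted library, Gzmk among them. At least 1.5-fold higher were 0.629% of genes, and Gzma was not among these. Over these genes the median log2 ratio of NK-depleted over control was -0.06.

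**Figure D1:**
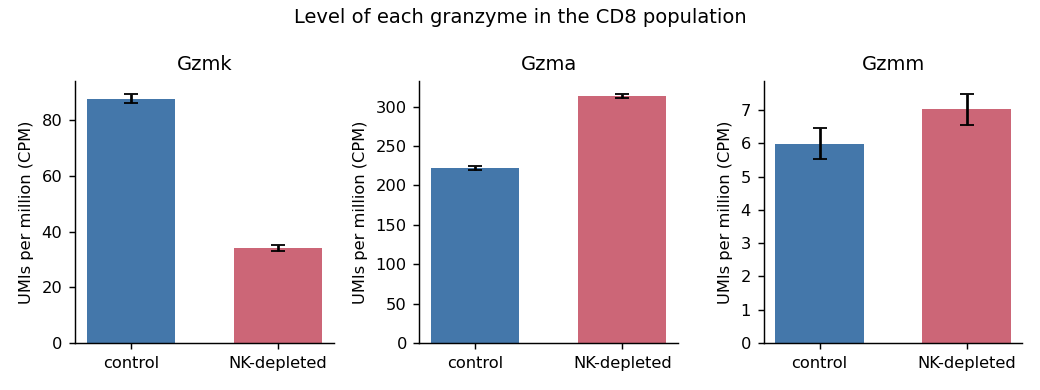
Level of Gzmk, Gzma and Gzmm (CPM, each panel with its own axis from 0) in the control and NK-depleted libraries, with 95% Poisson intervals for counting error as black lines. Gzmk stands at 87.9 and 34.2, Gzma at 222 and 314, and Gzmm at 5.98 and 7.02.

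The granzymes differed in how their transcripts were spread over cells. Gzma was concentrated in few cells that held very many copies. The 1% of cells with the most Gzma held 49.6% of all control Gzma UMIs and 44.3% of the NK-depleted ones, and the highest single cells held 1194 and 1475 UMIs. Cells with at least 10 Gzma UMIs before thinning were 418 control cells (6.06%) and 605 NK-depleted cells (7.41%), and they held 82.6% and 88.7% of the Gzma UMIs. Gzmk was spread thinly over many cells. Its carriers before thinning had a median of 2 UMIs in both libraries, the highest cells had 17 and 19, and the top 1% of cells held 8.57% and 16.3% of its UMIs. Gzmm was sparse. Its highest cells had 9 and 10 UMIs, and 70.1% of control and 68.1% of NK-depleted cells that had any Gzmm had a single UMI.

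**Figure D2:**
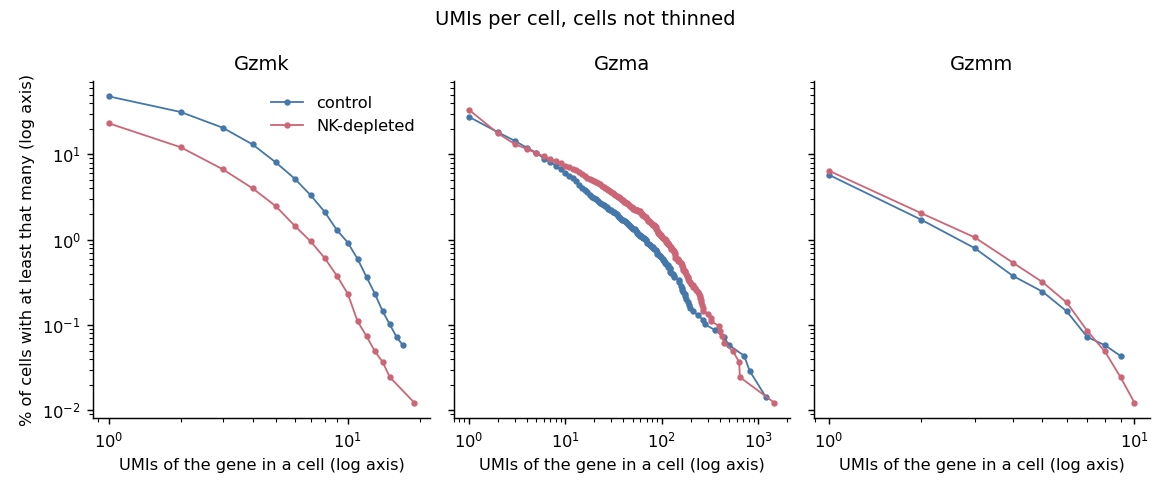
Share of cells (log axis, in percent of the population) with at least a given number of UMIs of Gzmk, Gzma or Gzmm (log axis), cells not thinned, one line per library. The Gzma lines run on to 1194 UMIs in the control and 1475 in the NK-depleted library, while the Gzmk lines end at 17 and 19 and the Gzmm lines at 9 and 10.

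At equal depth, Gzmk carriers were 33.7% of control cells (32.6 to 34.9) and 13.2% of NK-depleted cells (12.4 to 14.0). Before thinning these shares were 48.0% and 23.2%. Gzma carriers were 19.9% (18.9 to 20.9) and 21.5% (20.6 to 22.5) after thinning and 27.7% and 33.5% before it. Gzmm carriers were 3.03% (2.62 to 3.48) and 3.32% (2.92 to 3.75) after thinning and 5.77% and 6.44% before it. The difference, NK-depleted minus control, was -20.5 percentage points for Gzmk (-22.0 to -19.1), 1.61 points for Gzma (0.239 to 2.99) and 0.292 points for Gzmm (-0.308 to 0.892). The interval of the Gzma difference thus lay just above 0, and that of Gzmm included 0. Intervals of these differences are approximate, made from the widths of the exact intervals of both shares. With a limit of 2 UMIs the Gzma shares were 12.04% and 11.5%, so their order turned, and the Gzmk shares were 14.9% and 4.37%.

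Granzyme UMIs were also found in cells that should not make them, where free RNA in the droplets and doublets cannot be told apart. In the clusters with dendritic cell genes that passed the Cd3 and Cd8 rule, Gzma had a UMI in 14.7% of 109 thinned control cells (8.63 to 22.7) and 17.6% of 85 thinned NK-depleted cells (10.2 to 27.4). Their median depths before thinning were 18960 and 19159 UMIs. The Gzma share of the whole population lay within or close to those intervals, so a single Gzma UMI is read here as near background. Gzmk had a UMI in 16.5% (10.1 to 24.8) and 7.06% (2.63 to 14.7) of the same cells, below the population's share in the control library and within the interval in the NK-depleted library. Gzmm had a UMI in 1.83% (0.223 to 6.47) and in 0 of 85 (up to 4.25%), so its share in the population was not above these intervals. The naive or central memory-like cluster described below had Gzma in 13.1% and 18.7% of its cells but Gzmk in 2.11% and 2.16%. Among myeloid barcodes without any Cd3 or Cd8 UMI, which were few (53 and 27) and shallow (medians of 891 and 813 UMIs), 12 and 14 held Gzma and none held Gzmk or Gzmm.

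For this reason Gzma-high cells, with at least 10 Gzma UMIs after thinning, are described as well, a limit chosen after the values were seen. There were 175 control cells (2.80%) and 284 NK-depleted cells (3.85%), against 0 of 109 (up to 3.33%) and 1 of 85 dendritic-like cells (0.0298 to 6.38%). Both population shares lay within those intervals, so these few cells do not show that the limit clears the background. Before thinning, at least 10 Gzma UMIs were found in 5 of 111 and 3 of 48 control cells of the dendritic-like clusters. In the NK-depleted library it was 0 of 65 and 2 of 41. In Gzma-high cells Cd8a stood at 730 CPM (control) and 715 CPM (NK-depleted), against 927 and 721 CPM in the other cells. Cd3e stood at 614 and 641 CPM in Gzma-high cells, against 667 and 560 CPM. The sum of 7 NK cell markers was no higher in them. Gzma-high cells had 93.5 CPM (control) and 108 CPM (NK-depleted), against 98.4 and 125 CPM in the other cells. Much of the sum in the other cells came from Fcer1g and Tyrobp, and Tyrobp is also a leading gene of a dendritic-like cluster. Fcer1g stood at 20.8 against 34.8 CPM (control) and 51.2 against 64.0 CPM (NK-depleted), and Tyrobp at 15.6 against 30.9 CPM and 10.2 against 19.2 CPM. The sum therefore does not show how the other markers stood. Ncr1, which marks NK cells, was counted 0 times in control and 1 time in NK-depleted Gzma-high cells. Single markers differed from the sum: Klrb1c, which encodes the NK1.1 antigen, stood at 10.4 CPM in Gzma-high and 3.35 CPM in other control cells, and at 3.84 and 5.89 CPM in NK-depleted cells. Eomes, a factor of NK cells and of memory T cells, stood at 43.6 against 21.4 CPM and at 36.5 against 30.7 CPM. Their part in the Gzma values was not tested. The summed gamma delta T cell markers stood at 11.4 CPM in the control Gzma-high cells, with 5 of 8 markers at 0, and at 42.3 CPM in the NK-depleted ones, against 24.2 and 36.1 CPM in the other cells. Trdc, the constant region of the delta chain, had 0 UMIs in the control Gzma-high cells and 26 in the NK-depleted ones, and its part in the Gzma values was not tested.

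Gzmk and Gzma shared cells more often than their separate frequencies give. In the control library 675 cells carried both, against 420 expected if the genes were carried independently, a ratio of 1.61 (1.49 to 1.73). In the NK-depleted library it was 419 against 210, a ratio of 1.99 (1.81 to 2.19). Gzma had a UMI in 32.0% of control Gzmk carriers and 13.8% of the other control cells, and in 43.0% and 18.3% of the NK-depleted cells. There was therefore no mutual exclusion between granzymes K and A in either library. Without the 8% of cells with the most UMIs the ratios were 1.62 and 2.04. Doublets of shallow cells can stay below that limit, so the part of doublets was not tested. Of the clusters described below, cycling-like cluster 2 had a median of 24174 UMIs and cluster 4 of 7918. With expected numbers summed within clusters the ratios were 1.34 and 1.84. The number of double carriers lay above the expected one in 11 of 12 control clusters and 11 of 11 NK-depleted clusters of at least 100 cells.

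Cells with more Gzma carried Gzmk more often. In the NK-depleted library Gzmk had a UMI in 9.60% of 5793 cells without Gzma, 15.2% of 742 cells with 1 Gzma UMI, 28.7% of 565 cells with 2 to 9, 47.1% of 244 cells with 10 to 49 and 72.5% of 40 cells with 50 or more. Each of these steps went up. In the control library the shares were 28.7% of 5001 cells, 46.2% of 493, 58.6% of 577, 62.9% of 159 and 56.3% of 16 cells. The last control interval, from 29.9 to 80.2%, spans the 3 bins before it. Among cells with at least 10 Gzma UMIs Gzmk carriers were 62.3% (control) and 50.7% (NK-depleted), against 32.9% and 11.7% of the remaining cells, so the observed number of double carriers was 1.85 (1.52 to 2.23) and 3.84 (3.24 to 4.52) times the expected one.

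**Figure D3:**
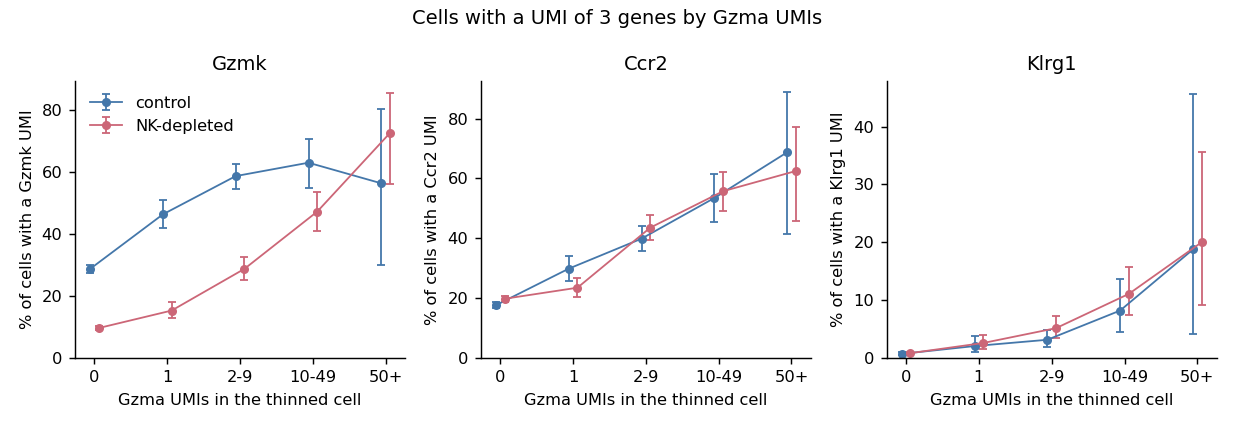
Share of cells with a UMI of Gzmk, Ccr2 and Klrg1 (percent, with exact 95% intervals) by the number of Gzma UMIs in the thinned cell, for both libraries. All 3 genes are more frequent in cells with 10 to 49 Gzma UMIs than in cells without Gzma, and the 50-or-more bin holds only 16 control and 40 NK-depleted cells.

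Pairings with Gzmm rested on fewer cells. Gzmk and Gzmm were found together in 56 control cells against 63.8 expected, a ratio of 0.878 (0.663 to 1.14), and in 53 NK-depleted cells against 32.4 expected, a ratio of 1.64 (1.23 to 2.14). Gzma and Gzmm were found together at 1.25 times (0.917 to 1.66) and 1.61 times (1.29 to 1.99) the expected number. With this limit of 1 UMI both control intervals include 1 and neither NK-depleted interval does. Gzma-high cells carried Gzmm at 2.45 times (1.31 to 4.2) and 2.12 times (1.3 to 3.28) the expected number, and both of these intervals lie above 1. Summing the expected numbers within clusters gave 1.46 (0.778 to 2.497) and 1.496 (0.914 to 2.31) for Gzma-high cells, and both of these intervals include 1. Whether the libraries differed in these ratios was not tested. All 3 granzymes were present in 22 control cells against 12.7 expected and in 32 NK-depleted cells against 6.97 expected. None of the 3 was detected in 55.4% of control and 69.0% of NK-depleted thinned cells. Gzmk alone was found in 22.4% and 7.25%, Gzma alone in 8.73% and 15.2%, and Gzmk with Gzma but not Gzmm in 10.5% and 5.24% of cells.

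Gzmf and Gzmc are granzymes of the Gzmb locus. In the control library Gzmk was found with each of them less often than expected. Gzmk and Gzmf were found together at 0.648 times the expected number (0.557 to 0.749) and Gzmk and Gzmc at 0.590 times (0.486 to 0.711). In the NK-depleted library the ratios were 0.940 (0.856 to 1.03) and 0.916 (0.813 to 1.03), and both intervals include 1. Such an interval holds the expected number fixed, which makes it too wide for genes that many cells carry. It therefore does not show that the genes were carried independently. With at least 2 UMIs of both genes the ratios were 0.197 and 0.196 in the control library and 0.732 and 0.593 in the NK-depleted library. Gzmf carriers were 13.3% of control and 50.4% of NK-depleted cells, and 7.55% and 37.0% of the shallow myeloid barcodes held Gzmf, and the part of free RNA in these pairings was not tested. With expected numbers summed within clusters the Gzmk ratios were 0.801 for Gzmf and 0.716 for Gzmc in control cells, and 0.911 and 0.866 in NK-depleted cells. Gzmm and Gzmf were found together at 0.359 (0.164 to 0.682) and 0.785 (0.637 to 0.958) times the expected number. Gzmb, which most cells carried, was present in 95.2% of control and 97.1% of NK-depleted Gzmk carriers, and in 77.8% and 90.3% of the other cells.

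Cells of both libraries were clustered together, with every granzyme gene left out, so that the granzymes did not define a cluster. Of 16 clusters, a name was given only where markers supported it. Cluster 4 (leading genes Actn2, Car2, Itga4 and Ccl5) and cluster 11 (Trim30c, Iigp1, Rsad2) were interferon responsive-like, cluster 0 (Ifitm1, Csf1, Havcr2) terminally exhausted-like, clusters 2 and 9 cycling-like and cluster 6 (Il6ra, Klf2, S1pr1) naive or central memory-like. The name of cluster 0 rests on only 4 of 12 markers, against 7 and 8 of 9 for clusters 4 and 11 and 8 of 9 for cluster 6. Cluster 8 (Trim30c, Ccl5, S1pr1, Slamf6) and cluster 10 (S1pr1, Dtx1, Ccl5, Klf3, Klf2) held markers of several states and are called by their numbers. Clusters 4 and 11 held 1421 and 454 control cells but only 78 and 46 NK-depleted cells, and cluster 1 (Upp1, Tnfsf8, Lilrb4a) held 216 control and 1741 NK-depleted cells. A cluster that is mostly of 1 library may reflect that library rather than a cell state.

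Gzmk stood highest in the interferon responsive-like clusters. In the control library its level was 277 CPM in cluster 11 and 228 CPM in cluster 4, followed by 128 CPM in cluster 8, 108 CPM in cluster 1 and 81.4 CPM in cluster 9. The first 2 steps of that order were outside the counting intervals, while clusters 8 and 1 overlapped. In the NK-depleted library the order began with cluster 4 at 240 CPM, cluster 11 at 150 CPM, cluster 8 at 104 CPM and cluster 10 at 94.8 CPM, and the intervals of clusters 11, 8 and 10 overlapped from neighbour to neighbour. The naive or central memory-like cluster 6 was lowest in both libraries, at 5.18 and 3.94 CPM, with Gzmk carriers in 2.11% and 2.16% of its cells. Carriers reached 65.6% in control cluster 4 and 67.9% in control cluster 11, and 60.0% of 50 and 42.9% of 35 NK-depleted cells.

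The size of the library difference in Gzmk depended on the mix of clusters. Clusters 4 and 11 together gave 29.8% and 12.2% of the control Gzmk UMIs and 2.89% and 1.12% of the NK-depleted ones. With both libraries weighted to the control library's mix of clusters, the ratio of NK-depleted over control was 0.758 in place of 0.389, and with both weighted to the NK-depleted library's mix it was 0.532. The first of these rests on the 78 and 46 NK-depleted cells of clusters 4 and 11. Both weightings were added after the data were seen. Within clusters, Gzmk was lower in the NK-depleted library in 12 of 14 clusters compared. Cluster 11, with 46 NK-depleted cells, was too small to be compared, and a dendritic-like cluster was included. Among the 12, the counting intervals of the libraries overlapped in clusters 0, 6, 8, 12 and 14. The median log2 ratio was -0.47, the lowest was -1.80 in cluster 1 and the highest 0.36 in cluster 10. In cluster 4, whose NK-depleted cells were few, the levels were 228 and 240 CPM and their intervals overlapped. In cluster 1 the control level was 108 CPM (94.99 to 121) and the NK-depleted level 31.0 CPM (28.6 to 33.5), and in the cycling-like cluster 2 they were 71.5 and 29.4 CPM.

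**Figure D4:**
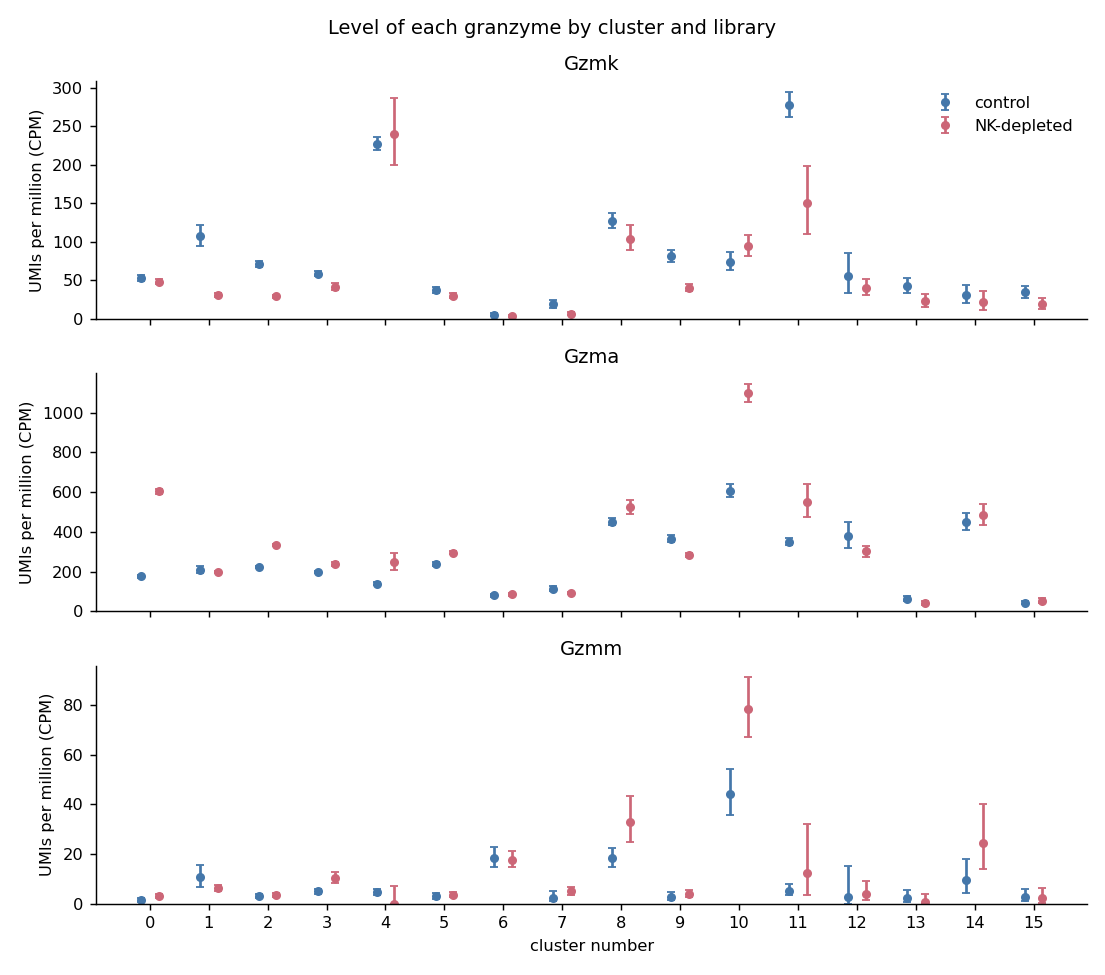
Level of Gzmk, Gzma and Gzmm (CPM, axes from 0) in each of 16 clusters for both libraries, with 95% Poisson intervals. Gzmk is highest in clusters 4 and 11, while Gzma and Gzmm are highest in cluster 10 in both libraries.

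Gzma had another order. It was highest in cluster 10, with 606 control and 1097 NK-depleted CPM. In the control library cluster 8 (451 CPM) and cluster 14 (led by Il2, Xcl1 and Ifng, 450 CPM) came next with overlapping intervals, and in the NK-depleted library the terminally exhausted-like cluster 0 came next (604 CPM), with an interval that overlapped that of cluster 11 (553 CPM, 475 to 641). Cluster 0 showed the widest library difference, between 177 CPM (170 to 184) for the control and 604 CPM (591 to 616) for NK depletion, a log2 ratio of 1.77. Few cells held most of the Gzma UMIs, so the intervals of its levels here are too narrow for the spread between cells. The order of clusters for Gzma carries the same limit. Its Gzma-high cells were 2.28% of 879 control cells (1.40 to 3.49) and 5.59% of 1092 NK-depleted cells (4.30 to 7.12). Over 14 clusters compared, Gzma was higher in the NK-depleted library in 9, with a median log2 ratio of 0.16. Among clusters of at least 100 thinned cells in both libraries, Gzma-high cells were most frequent in cluster 10, at 11.2% of 206 control and 13.9% of 194 NK-depleted cells, and in cluster 8, at 8.18% and 10.4%. In the small control cluster 12 they were 3 of 25 cells (12%). In cluster 6 they were 0.937% and 1.08%. By number, control clusters 8 and 10 held 17.7% and 13.1% of the control Gzma-high cells and clusters 2 and 0 held 12% and 11.4%. In the NK-depleted library the cycling-like cluster 2 and cluster 0 held 23.6% and 21.5% of the NK-depleted Gzma-high cells.

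Gzmm was highest in cluster 10 as well, with control cells at 44.3 CPM (36.0 to 54.1) and NK-depleted cells at 78.5 CPM (67.1 to 91.3). Its carriers were 17.5% of control and 25.3% of NK-depleted cells there. Cluster 8 followed with 18.5 and 33.1 CPM, and the naive or central memory-like cluster 6, where Gzmk was lowest, had 18.4 and 17.8 CPM. In the control library the intervals of clusters 8 and 6 overlapped. The terminally exhausted-like cluster 0 had 1.5 and 3.03 CPM, and cluster 4, where Gzmk was high, had 4.73 CPM in the control library and 0 UMIs in 78 NK-depleted cells, which allows up to 7.14 CPM. Over the 11 clusters compared, Gzmm was higher in the NK-depleted library in 9, with a median log2 ratio of 0.82. With the control mix of clusters, the NK-depleted over control ratio was 1.44 for Gzmm and 1.52 for Gzma, and with the NK-depleted mix it was 1.19 and 1.43.

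The genes carried along with Gzmk included other effector genes, interferon-induced genes and a receptor for inflammatory chemokines. Carriers were compared with all other cells of the same library by their CPM in thinned cells, and a gene counted only if it differed by at least 1.5-fold in both libraries. Of 2794 genes measured, 10 were higher in Gzmk carriers (0.358%) and 8 lower (0.286%). The median log2 ratio of all measured genes was 0.06 (control) and 0.08 (NK-depleted). The control Gzmk carriers were shallower than the other cells before thinning (medians of 10320 and 13499 UMIs) and had a lower mitochondrial share (1.72% and 2.51%), while in the NK-depleted library the depths were 12901 and 13271 UMIs.

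Gzma led the list, at 373 CPM in Gzmk carriers and 122 CPM in other control cells, and at 1119 and 157 CPM in NK-depleted cells (log2 ratios 1.61 and 2.84). Ccr2, a receptor for monocyte-attracting chemokines, stood at 151 against 58.0 CPM and 194 against 76.7 CPM. Ccl5, a chemokine of memory and effector T cells, stood at 6405 against 2633 CPM and 3488 against 1026 CPM. Also among them were the integrin subunit Itga4 (log2 1.04 and 0.98), Gzmb (0.65 and 0.85), the interferon-induced Ifit1bl1 (1.47 and 0.87), Phf11a (0.92 and 0.76) and Gbp3 (0.72 and 0.59), and the redox enzyme Glrx (0.96 and 0.64). Pttg1 and Phf11b had ratios just below the 1.5-fold limit in the NK-depleted library, 0.58 and 0.57. When the other cells were weighted to the carriers' mix of clusters, 3 genes passed the limit in place of 10, and Ccr2 and Ccl5 kept log2 ratios of 0.70 and 0.61 (control) and 1.1 and 1.29 (NK-depleted). In each library this weighting left out the clusters with few carriers.

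Of 7 measured members of the naive or central memory list 3 were lower in Gzmk carriers of both libraries, and so were 3 of 3 of the progenitor exhausted list, Ikzf2, Xcl1 and Tcf7. With the other cells weighted to the carriers' mix of clusters, the 8 lower genes became 2, and the control log2 ratio of Tcf7 went from -1.22 to -0.32. That weighting does not cover all cells. It left out cluster 6, with 9 control and 14 NK-depleted Gzmk carriers. Cluster 7, with Ikzf2 and Xcl1 among its leading genes and 15 and 17 carriers, was left out too. How far this moved the ratios was not tested. Xcl1, a chemokine that attracts cross-presenting dendritic cells, stood at 33.8 CPM in carriers and 100.5 CPM in other control cells, and at 34.9 and 117 CPM in NK-depleted cells (log2 -1.57 and -1.75). Also lower were the stem-like factor Tcf7 (-1.22 and -1.40), the homing receptor Ccr7 (-1.93 and -1.16), Ikzf2, which encodes Helios (-1.16 and -0.91), and the nucleolar Gnl3 (-0.74 and -0.87). Of 15 measured type I interferon response genes none passed in both libraries. Their median log2 ratio was 0.92 in the control and 0.43 in the NK-depleted library, where Ifit1 reached 1.04 and 0.51. Of 12 granule machinery genes none passed in either direction, with medians of 0.02 and 0.28. Nkg7, a granule membrane protein, had log2 ratios of 0.33 and 0.41. Of 8 inhibitory receptor and exhaustion genes none passed.

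Gzma-high cells were compared with the others in the same way. Of 2764 genes measured, 19 were higher (0.687%) and 9 lower (0.326%) in both libraries. Among the higher genes were 4 of 5 measured cytokines and chemokines, 2 of 9 circulating effector genes and 1 of 11 granule machinery genes, Prf1. With the 1-UMI limit 4 of 2734 genes were higher (0.146%), Gzmk, Ccr2, Ccl5 and Gzmb, and 0% were lower. Ccr2 stood at 274 against 84.0 CPM in control cells and 295 against 84.1 CPM in NK-depleted cells. Gzmb stood at 4380 against 1925 CPM and 5682 against 2280 CPM. Gzmk stood at 237 against 105 CPM and 180 against 31.0 CPM. Ccl5 had log2 ratios of 1.61 and 2.08, Ccl4 of 1.49 and 1.11, Ifng, the T cell interferon, of 1.93 and 0.85, Prf1, the pore former perforin, of 0.87 and 0.74, and Zeb2, a factor of terminal effector cells, of 1.14 and 0.80. Also in the list were Gzmc (0.96 and 0.96), the metallothionein Mt1 (1.07 and 0.86), Rasgrp2, an activator of integrin signalling (1.14 and 0.80), and Wdr95 (1.0 and 0.77).

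The marker of short-lived effector cells Klrg1, below the level limit for the count, stood at 31.2 CPM in Gzma-high and 2.16 CPM in other control cells, and at 32.7 and 3.0 CPM in NK-depleted cells (log2 3.85 and 3.45). Klrg1 had a UMI in 0.680% of control cells without Gzma and in 18.8% of those with 50 or more Gzma UMIs (4.05 to 45.6, 16 cells) and in 0.811% and 20% in the NK-depleted library. Lower in Gzma-high cells were Ccr7 (log2 -2.32 and -1.07), Ikzf2 (-1.09 and -1.40), Tcf7 (-0.95 and -1.76), the costimulatory receptor Tnfrsf4 (-1.33 and -0.97) and the noncoding Snhg12 (-0.77 and -1.04). Tox, a factor of exhausted cells and below the level limit in the NK-depleted library, was at 33.2 against 81.9 CPM and 14.7 against 26.2 CPM. Of 8 measured inhibitory receptor and exhaustion genes none passed in either direction, with median log2 ratios of 0.06 and 0.12. The cytokines and chemokines that were higher were Ifng, Ccl5, Ccl3 and Ccl4, and the circulating effector genes Zeb2 and Cx3cr1. Of 9 cell cycle genes none passed in either direction. Gzma-high cells were somewhat deeper than the others before thinning, with medians of 13469 against 12393 UMIs and 15407 against 13166.5 UMIs.

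Of 2807 genes measured, 33 were higher (1.18%) and 58 lower (2.07%) in Gzmm carriers of both libraries. Rasgrp2 led, at 87.5 against 29.3 CPM in control cells and 79.4 against 28.1 CPM in NK-depleted cells. Next came genes of quiescent, recirculating T cells, the factors Klf3 (log2 1.26 and 1.43) and Klf2 (1.31 and 1.15), the egress receptor S1pr1 (1.1 and 1.41), and Slamf6, a receptor of memory-like cells (1.18 and 1.56). Gzma (1.31 and 1.15), Ccl5 (1.06 and 1.97) and Ccr2 (0.85 and 1.16) were higher too, and so were Cmah (1.29 and 1.22), Ripor2 (1.04 and 0.88), Rora (0.86 and 0.97) and Emb (0.98 and 0.83). Tcf7, lower in Gzmk carriers, was higher in Gzmm carriers (1.12 and 0.81). Of 9 measured naive or central memory genes 5 were higher, among them S1pr1, Klf2, Tcf7 and Ccr7.

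Among the 58 lower genes were Gzmf, Gzmc and 5 of 9 cell cycle genes. Gzmf stood at 24.0 against 276 CPM in control cells and 371 against 1382 CPM in NK-depleted cells, and Gzmc had log2 ratios of -1.58 and -1.18. Gzmb was at 1282 against 2016 CPM and 1783 against 2432 CPM, and Prf1 at -1.17 and -0.54 on the log2 scale. Of 9 cell cycle genes 5 were lower, Cenpf (-1.63 and -1.76), Stmn1, Mki67 (-1.41 and -0.99), Top2a and Birc5, and the histone gene Hist1h3c and Nrgn were lower as well (-1.14 and -1.20, -1.15 and -1.98). Of 8 inhibitory receptor and exhaustion genes 3 were lower, Lag3 (-1.13 and -1.17), Havcr2, which encodes TIM-3 (-1.19 and -0.85), and Entpd1, which encodes CD39 (-0.97 and -1.17). These ratios moved with the clusters: with the other cells weighted to the carriers' mix of clusters 0 of the genes that were higher passed the limit in both libraries, and Klf2 had log2 ratios of 0.11 and -0.07. The 58 lower genes became 4, and in the control library the direction turned for Cenpf (from -1.63 to 0.54) and Gzmc (from -1.58 to 0.31). There the weighting left out clusters with few Gzmm carriers, among them cycling-like clusters 2 and 9 (8 and 3 carriers) and cluster 0 (5). The turned ratios thus cover only part of the cells. They also rest on few UMIs, as control Gzmm carriers had 25.0 CPM of Cenpf and 21.2 CPM of Gzmc before weighting. Gzmm carriers numbered only 189 and 245.

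**Figure D5:**
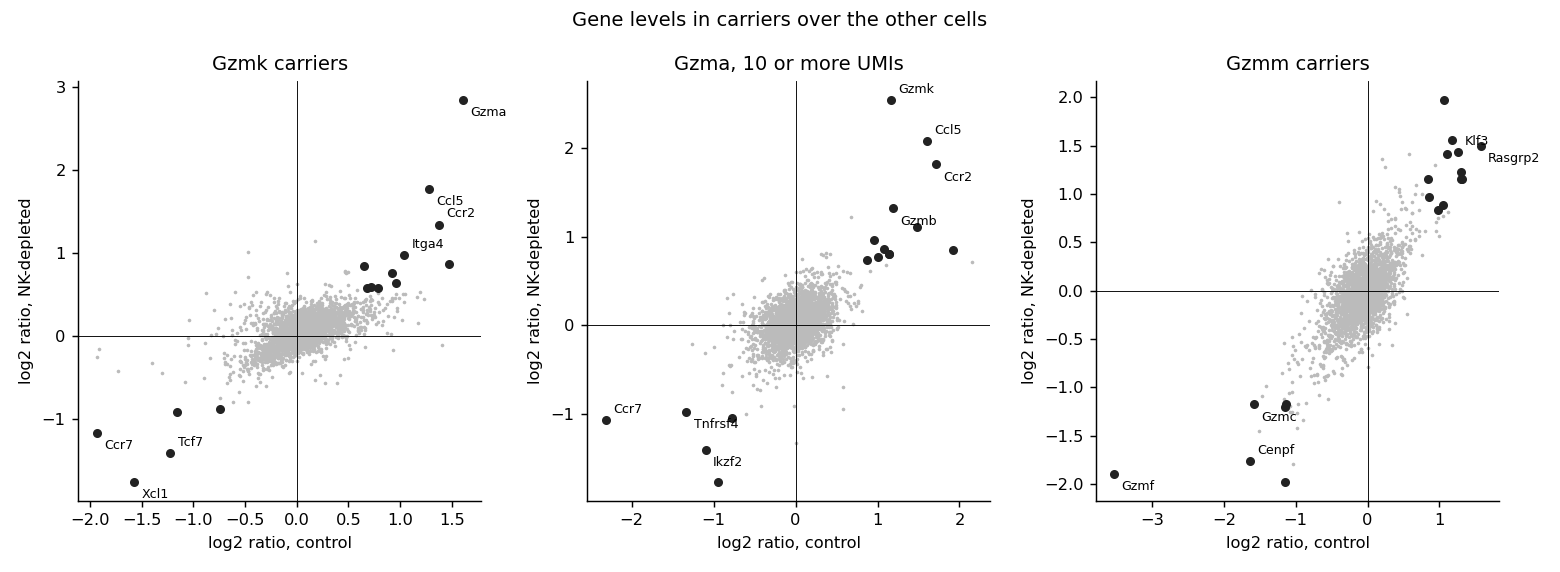
Log2 ratio of each measured gene's level in carriers over the other cells, in the control library (horizontal axis) and the NK-depleted library (vertical axis), for Gzmk carriers, Gzma-high cells and Gzmm carriers. Grey points are measured genes and black points named genes among the 12 highest and 6 lowest, a few of them labelled. Xcl1 and Ccr7 lie at the lower left for Gzmk carriers, Ccr7 for Gzma-high cells and Gzmf for Gzmm carriers.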

How the data were processed

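Per the file headers, Cell Ranger 6.1.2 made the UMI counts that the authors deposited, 1 whole number for each gene in each barcode, with no normalization. The submitters' processing notes name mm10 and Seurat 4.0.6. Granzymes, populations and depths were read from these deposited counts as described above, with 1 sample per group and no test. Members and gene lists were chosen with earlier results of these data known. Sums carry exact Poisson intervals, ratios of levels between the libraries exact conditional binomial intervals and shares Clopper-Pearson intervals. Observed over expected numbers carry the Poisson interval of the observed number, with the expected number held fixed. Differences in shares carry approximate intervals made from the widths of both Clopper-Pearson intervals. Cells were thinned without replacement to 5500 UMIs, leaving out 655 control and 780 NK-depleted cells. Clustering used scanpy 1.11.5 and leidenalg 0.10.2 without integration. Named genes were the 12 highest and 6 lowest by the weaker of both libraries' log2 ratios among genes of at least 50 CPM, up to 4 per list over 14 gene lists, and a fixed set. Unnamed and sex-linked genes and those of receptor segments, ribosomes, mitochondria and haemoglobin were not eligible. The arithmetic of the carrier comparison was checked on simulated data. There 100% of genes raised 2-fold and 98.9% of those lowered 2-fold in Gzmk carriers were recovered among 2901 genes. The simulated counts were Poisson sums drawn from control means, without spread between cells, clusters or free RNA. They therefore do not show how the comparison performs on real cells. Alternatives covered scaling, filters, depth, carrier limits and cluster mix. Results for some genes of this rule are not reported here.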

Additional observations from a re-analysis of the deposited data

Results flagged for a closer look

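Among the named genes, a few lay on opposite sides of the other cells in the 2 libraries, by at least 2-fold between them. There was 1 library each and no test of the difference. In Gzmk carriers Cx3cr1, a receptor of circulating effector cells, had log2 ratios of -0.47 in the control and 1.01 in the NK-depleted library, a difference of 1.49. Havcr2 had -0.47 and 0.71, a difference of 1.19. Ifng had -0.80 and 0.31, a difference of 1.11. With the other cells weighted to the carriers' mix of clusters, the signs of these Gzmk carrier ratios no longer differed between the libraries. Cx3cr1 then had 0.23 and 0.64, Havcr2 0.18 and 0.46, and Ifng 0.03 and 0.19. In Gzma-high cells Xcl1 had 0.58 and -0.94, a difference of -1.53.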

How the results depend on the processing

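Of 104 values recomputed under an alternative setting, 65 stayed within the limits set, 38 moved beyond them and 1 changed direction. The Gzmk ratio of NK-depleted over control was 0.413 with the TMM factor, 0.417 with median-of-ratios factors, 0.345 as a mean over cells and 0.349 without the 8% of cells with the most UMIs. For Gzma these scalings gave 1.5 and 1.51, and the ratio was 1.54 without the same 8% of cells and 1.62 without cells with Mki67 or Top2a. Settings added after seeing the data gave 0.355 for Gzmk and 1.56 for Gzma without the 1% of cells highest in the gene, and 0.758, 1.52 and 1.44 for Gzmk, Gzma and Gzmm with the control mix of clusters, and 0.532 for Gzmk with the NK-depleted mix. The Gzmk share differed by -15.4 percentage points at 3000 UMIs and -10.5 with a limit of 2 UMIs, in place of -20.5. The Gzma share differed by 1.61 points with 1 UMI and by -0.542 with 2 UMIs, so its direction depended on the limit. The ratio of observed to expected double carriers of Gzmk and Gzma was 2.27 in the control and 3.74 in the NK-depleted library with 2 UMIs, 1.85 and 3.84 with the Gzma-high limit added later, 2.44 at 3000 UMIs in the NK-depleted library and 1.34 with expected numbers within control clusters. With 2 UMIs it was 2.76 for Gzmk with Gzmm in the NK-depleted library and 1.78 and 2.40 for Gzma with Gzmm, which the Gzma-high limit put at 2.45 and 2.12. The 10 genes higher in Gzmk carriers became 21 at 3000 UMIs, 20 without cells with Mki67 or Top2a, 40 with 2 UMIs, 194 without a CPM minimum and 3 with clusters weighted. The 33 for Gzmm became 20 without those cells, 65 with 2 UMIs, 204 without a minimum and 0 with clusters weighted, and the 4 for Gzma became 130 without a minimum and 19 with the Gzma-high limit. The cause of these shifts was not tested. No paired analysis was possible because each group has 1 library and no result comes from a test, and no replicate could be left out. Depth limits Gzmm most, with 637 and 880 UMIs in all.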

Other observations

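Members of the granzyme cluster around Gzmb differed in how they went with Gzmk in the 2 libraries. Gzmd stood at 5.61 CPM in Gzmk carriers and 43.9 CPM in other control cells, and at 86.0 and 115 CPM in NK-depleted cells. Gzme stood at 4.57 and 35.8 CPM in the control and at 62.3 and 68.8 CPM in the NK-depleted library. Gzmg was nearly absent from the control library, at 0.0863 and 1.05 CPM, and stood at 16.4 CPM in Gzmk carriers and 7.49 CPM in other cells of the NK-depleted library. The NK-depleted Gzmk carriers had log2 ratios of 0.71 for Havcr2 and 0.53 for Pdcd1, both inhibitory receptors, where the control carriers had -0.47 and -0.07. With clusters weighted, Havcr2 had 0.46 in NK-depleted and 0.18 in control carriers, and Pdcd1 0.23 and -0.01. Klrg1 stood at 13.0 against 2.78 CPM in NK-depleted and 4.31 against 2.28 CPM in control Gzmk carriers and other cells.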
